A study of Arabidopsis thaliana with 4 samples.

Results

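The genes described here lie in an interval of Arabidopsis thaliana chromosome 4 that takes in the pericentromere and the heterochromatic knob. The deposited annotation does not call them transposons, retroelements, pseudogenes or immune receptors. They were chosen by position and description alone: rows of chromosome 4 with a start from 1.5 to 5.5 Mb (genome release 6, per the files), without 510 rows whose description has one of those terms and without AT4G04890, the homeodomain gene PDF2. This left 334 of the 30361 gene models on the array. The plants are of the accession Landsberg erecta (Ler), taken from MS medium plates on day 7, and the total RNA of each sample was hybridised to 1 NimbleGen array. The TEKi group carries an artificial microRNA against TEK, a gene for an AT-hook DNA-binding protein, and the labels give it late flowering. The wild-type group is Ler without that transgene, labelled with normal flowering time. Each group has 2 arrays, from separate cultures per the labels. The TEKi plants are called T3 plants, and neither the promoter of the microRNA nor the number of lines is given in the sources used here.

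Pericentromeres and knobs are blocks of heterochromatin, in which transposons are dense and are kept silent by DNA methylation and by methylation of histone H3. Ordinary genes are scattered among them, and some carry the same marks. Which genes of the interval lie in heterochromatin was not tested. The knob on the short arm of chromosome 4 is a feature of the accession Columbia, from which the reference gene models come, where it arose with an inversion that Ler lacks. How well Ler transcripts match probes designed on those gene models was not tested.

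The interval was itself a mixture of gene kinds. The deposited annotation calls 198 of the 334 genes unknown, hypothetical or only expressed. In the RefSeq gene table, which follows a later assembly (TAIR10.1), 332 of the loci were found, of which 243 are protein-coding and 89 are now listed as pseudogenes. Each gene was read by 2 probe pairs (245 genes) or 3 (89 genes), and no model stands for several loci.

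The files put different arrays into the groups. In the series value table, TEKi 1 holds the array filed as wild type 2 and wild type 2 holds the one filed as TEKi 1, while wild type 1 and TEKi 2 are the same array in both. Over the 333 region genes tested, Pearson's r of log2 intensity across genes, which are not independent replicates, was 0.964 for the TEKi pair of the value table and 0.956 for its wild-type pair. It was 0.848 for the pair filed as TEKi and 0.847 for the pair filed as wild type. By the filed labels, the TEKi pair of the value table is the arrays numbered 2 and its wild-type pair those numbered 1. A TEKi difference with the value-table labels is thus a difference between replicate numbers with the array-file labels. Which labels are right was not tested. The comparison is therefore given under both sets of labels. TEK itself (AT2G42940) had intensities of 9864 and 13770 in the arrays filed as TEKi and 13406 and 14118 in those filed as wild type (log2 difference -0.24, limma, adjusted p = 1). Under the other set TEK was higher in TEKi, at 14118 and 13770 against 13406 and 9864 in wild type (log2 difference 0.28, adjusted p = 0.694). TEK, the targeted gene, did not pass under either set. With the array-file labels its groups overlapped, and with the value-table labels both TEKi arrays were above both wild-type arrays. TEKi and wild type below mean the arrays so labelled. The median intensity of all genes was 5639 to 5814 per array. Of the 4 leaf markers, RBCS1A, LHCB2.1 and CA1 were at 54170 or above on every array, whereas CAB2 was at 636 or below. The floral genes AP3, PI and AG and the anther gene AT5G07230 stayed at or below 1666, and the seed genes CRA1, OLEO1 and SESA3 lay between 739 and 15671. By the value-table labels, CRA1 had 739 and 1388 in TEKi and 15671 and 14517 in wild type, and OLEO1 had 2210 and 7485 in TEKi and 14132 and 12713 in wild type. SESA3 had 1613 and 1372 in TEKi and 2462 and 1005 in wild type, so that its groups overlapped. The part of CRA1 and OLEO1 in the results was not tested.

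Genes of the interval were dim compared with the rest of the array. Their median intensity was 1695 and 1836 on the arrays filed as wild type 1 and TEKi 1. It was 811 and 857 on those filed as wild type 2 and TEKi 2. By the value-table labels the first pair is wild type and the second is TEKi. Of the 333 genes tested, 133 (39.9%) lay in the lowest quartile of mean log2 level. Still, 74 had an intensity above 10000 on all 4 arrays, and 129 stayed below 1000 on all 4. The bright genes had housekeeping and plastid roles among them. PSBQ-2, a subunit of the oxygen-evolving complex of photosystem II, had 64047 and 63179 in the arrays filed as TEKi and 58962 and 61718 in those filed as wild type. DDB1A, an adaptor of CUL4 ubiquitin ligases, had 53661 and 54681 in the arrays filed as TEKi, against 53937 and 58165 in those filed as wild type. GTA2, an SPT5 transcription elongation factor, had 50967 and 55503 in the arrays filed as TEKi and 59321 and 56969 in those filed as wild type. These 3 genes were bright on every array and lay close to the highest value the files hold (64046.8), where differences are compressed. AT4G07515 has an exact 0 on TEKi 2 and was not tested.

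With the array-file labels, no gene of the interval passed the test of TEKi against wild type. Limma called 0 of 333 region genes and 0 of 30352 genes on the whole array (0% called; smallest adjusted p 0.805 over all genes and 1 within the interval). At an unadjusted p under 0.05 there were 7 region genes lower (2.10%) and 4 higher (1.20%) in TEKi, against 2.24% and 2.37% of all genes, or 4.61% in either direction. The median log2 difference (TEKi minus wild type) was -0.041 in the interval and 0.0060 over all genes tested. The arrays of the groups did not overlap for 45 region genes that were lower in TEKi and 31 that were higher, which is 13.5% and 9.31% against 14.7% and 15.3% of all genes.

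The genes with the smallest unadjusted p values with the array-file labels lay below the median intensity of all genes on every array. None of them passed. AT4G03590, of unknown function, had 127 and 122 in TEKi and 484 and 407 in wild type (n = 2 each, log2 difference -1.84, SE 0.190, adjusted p = 1). ACS11, an enzyme gene of ethylene synthesis, had 1848 and 1606 in TEKi and 3143 and 3231 in wild type (log2 difference -0.89, SE 0.180, adjusted p = 1). The extensin-like gene AT4G08380, annotated as a cell wall constituent, had 61.4 and 69.2 in TEKi and 28.3 and 23.9 in wild type (log2 difference 1.33, adjusted p = 1). In each of these the arrays of the groups were apart. AT4G05616, AT4G07740 and AT4G03565 were also lower in TEKi on both arrays, by log2 differences of -0.95, -0.94 and -1.04. AT4G08136, AT4G06490, AT4G06534 and AT4G03610 were higher on both, by 0.76, 1.71, 0.68 and 0.50.

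With the value-table labels, 20 region genes fell in the arrays labelled TEKi and none rose. That is 6.01% of the 333 genes tested, against 1.95% of all genes that fell (591 of 30352), 0.273% that rose and 2.22% called in either direction. In the interval 15 of the 333 genes fell over 16-fold, against 376 of 30352 genes on the whole array (1.24%). The falls ran from 6.86-fold to 213-fold in deposited intensity. Among the genes that fell, the arrays labelled TEKi held 53.3 to 3491 and those labelled wild type 1687 to 64047. The spread of log2 differences was wide on the low side: 67 region genes were at least 2-fold lower in TEKi and 26 at least 2-fold higher, which is 20.1% and 7.81% against 7.74% and 7.23% of all genes. The median log2 difference was nonetheless 0.027, against 0.090 over all genes. At an unadjusted p under 0.05, 58 region genes were lower (17.4%) and 22 higher (6.61%) in TEKi, against 6.94% and 7.5% of all genes, or 14.4% in either direction. Arrays of the groups did not overlap for 102 region genes lower in TEKi (30.6%, against 17.1% of all genes) and 87 higher (26.1%, against 27.7%). In whole seedlings, fewer cells of a type and less RNA per cell cannot be told apart.

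The calls rested on adjusted p values between 0.0128 and 0.0446 (limma). No region gene was called when any 1 of the 4 arrays was left out or when the replicate number was a block, fits that keep 1 residual degree of freedom instead of 2, although without single arrays the log2 differences of the 20 genes stayed between -8.13 and -2.50 and moved by at most 0.57. These genes were picked from the same arrays, so the small moves are no separate evidence. The count of region genes called was 36 with a mean-variance trend, of which 32 were lower in TEKi. It was 32 without the lowest quartile of level (29 lower), and 5 where genes under the median level were left out (4 lower). The others called under these settings were higher in TEKi.

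**Figure D1:**
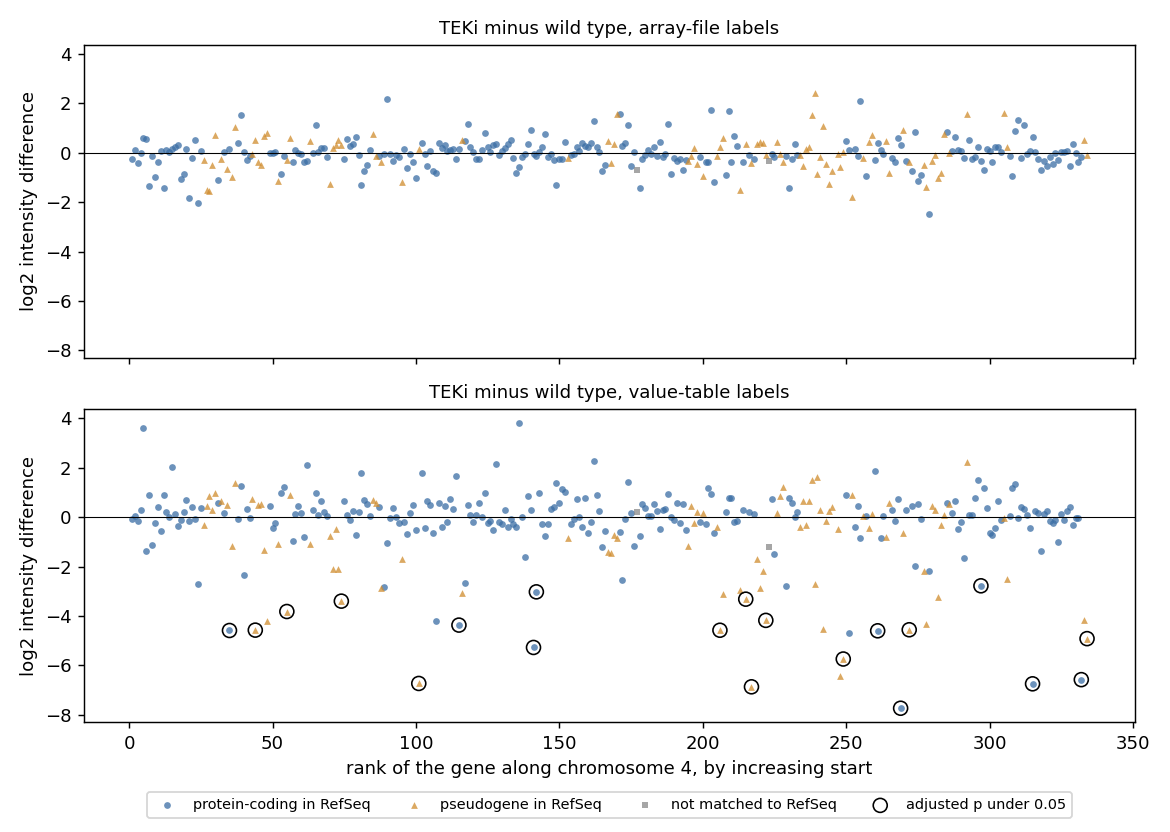
Log2 intensity difference, TEKi minus wild type, of each region gene (vertical axis) against its rank along chromosome 4 (horizontal axis), with array-file labels above and value-table labels below; circles, triangles and squares give the RefSeq class and rings the genes past adjusted p = 0.05. No gene is ringed above, and the 20 ringed genes below lie at -2.78 or lower, spread over the whole interval.

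Among the genes that fell with the value-table labels, 9 are protein-coding in RefSeq. AT4G07965 (chromosome 4, 4808632 to 4809349), of unknown function, had the largest fall of the interval, at 93.6 and 161 in the arrays labelled TEKi and 27377 and 25095 in those labelled wild type (n = 2 each, log2 difference -7.74, SE 0.336, adjusted p = 0.0149). It was bright on both wild-type arrays and near the dim end of the scale on both TEKi arrays. AT4G08430 (5347393 to 5350433), annotated as a cysteine-type peptidase, had 140 and 310 in TEKi and 21466 and 23348 in wild type (107-fold lower, adjusted p = 0.0254). AT4G08593 (5469342 to 5470463) had 413 and 287 in TEKi, against 31173 and 34817 in wild type (95.6-fold lower, adjusted p = 0.0133). No function is given for AT4G08593 in the files.

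Genes with a more specific description fell too. MSRB4 (AT4G04810, 2441410 to 2442565) belongs to the B-type methionine sulfoxide reductases, which reduce oxidised methionine in proteins. Its intensity was 86.9 and 90.3 in TEKi and 1687 and 1987 in wild type (log2 difference -4.37, SE 0.177, 20.7-fold lower, adjusted p = 0.0138). UBQ11 (AT4G05050, 2588002 to 2589360), a polyubiquitin gene, had 2354 and 2211 in TEKi and 19556 and 17583 in wild type (8.13-fold lower, adjusted p = 0.0194). Polyubiquitin genes are near-identical in their repeats, so the share of this signal that came from other copies is uncertain. Its neighbour AT4G05040 (2578644 to 2581795), annotated with protein binding, had 120 and 92.3 in TEKi against 3722 and 4457 in wild type (38.7-fold lower, adjusted p = 0.0149). AT4G08260, a protein phosphatase of type 2C by its description, showed the smallest fall, with 667 and 451 in TEKi and 3844 and 3683 in wild type (6.86-fold lower, adjusted p = 0.0446). The groups were well apart in all 4. AT4G07825 (24.3-fold lower) and AT4G03830 (24.1-fold lower), both of unknown function, complete the 9.

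The other 11 genes that fell are listed as pseudogenes in RefSeq, although the array annotation does not call them so. AT4G06672 (3888623 to 3889198) had 226 and 106 in TEKi and 16554 and 19818 in wild type (log2 difference -6.87, SE 0.450, adjusted p = 0.0246). AT4G04692 (2375600 to 2376362) had 314 and 394 in TEKi and 37790 and 36972 in wild type (106-fold lower, SE 0.196 on the log2 scale, adjusted p = 0.0128). Both were bright on the wild-type arrays alone. AT4G07520 (4341583 to 4345234) had 236 and 237 in TEKi, against 12235 and 13129 in wild type (53.6-fold lower, adjusted p = 0.0128). AT4G08602, at the far edge of the interval, had 83.4 and 53.3 in TEKi and 1716 and 2367 in wild type (30.2-fold lower, adjusted p = 0.0254). AT4G06735 stayed moderately bright in TEKi, at 3491 and 3358, against 64047 and 59998 in wild type, where its first value is the highest the files hold, so that the fold is a lower bound (at least 18.1-fold lower). AT4G05636 (23.9-fold), AT4G03975 (23.8-fold), AT4G08013 (23.6-fold), AT4G04130 (14.1-fold), AT4G04400 (10.5-fold) and AT4G06603 (9.98-fold) were lower as well. With the array-file labels, each high and each low pair of arrays was divided between the groups, and the log2 differences of these 20 genes lay between -0.42 and 0.63.

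**Figure D2:**
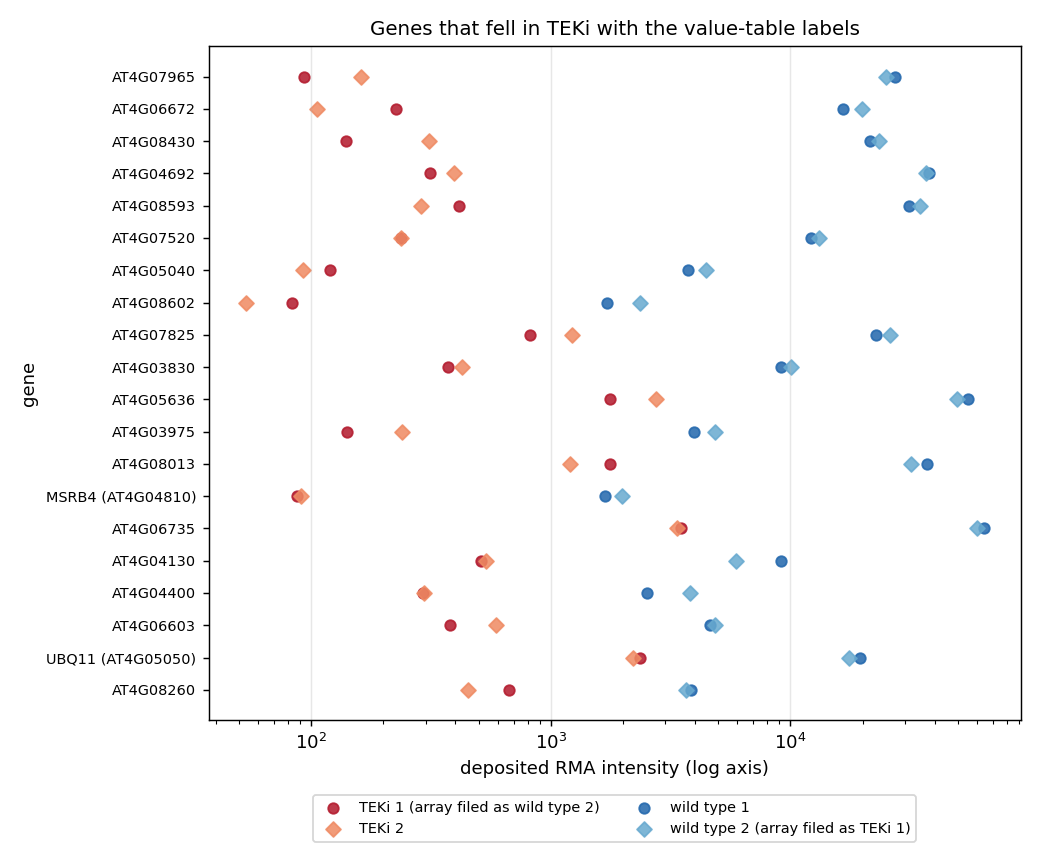
Deposited RMA intensity on a log axis (horizontal) of the 20 genes that fell with the value-table labels (vertical), 1 point per array, with TEKi in red shades and wild type in blue shades. Every TEKi point lies at 3491 or below, and within each gene both TEKi points lie below both wild-type points.

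No region gene rose in the main test, and the genes nearest to a rise came close to the threshold. A second quantile normalization gave 21 region genes called, 20 of them lower in TEKi. With median centring the counts were 26 and 25, and with a pseudocount of 50 they were 27 and 26. The rest were higher in TEKi. AT4G03540, of unknown function, had 4411 and 5803 in TEKi and 1263 and 1176 in wild type (log2 difference 2.05, SE 0.216, adjusted p = 0.0529). MSRB3, a methionine sulfoxide reductase gene 206 bases before MSRB4, had 17465 and 15054 in TEKi, against 5644 and 4712 in wild type (log2 difference 1.65, adjusted p = 0.0668). AT4G08250, annotated as a transcription factor, had 3111 and 3702 in TEKi and 1090 and 1285 in wild type (adjusted p = 0.0788). AT4G04260, annotated with DNA binding, stayed dim throughout, with 139 and 141 in TEKi and 40.4 and 25.7 in wild type (adjusted p = 0.0836). AT4G03440, an ankyrin repeat gene, had 4965 and 4756 in TEKi and 254 and 618 in wild type (log2 difference 3.62, adjusted p = 0.0885). In all 5 both TEKi arrays were above both wild-type arrays.

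Genes of the interval with known roles were grouped in 11 lists, drawn up from general knowledge. Whether each list holds every gene of its kind was not tested. Of these lists 2 held a gene that passed, both with the value-table labels. The first list is redox enzymes (8 genes, 1 fell, none rose, median log2 difference -0.011), and within it the 4 tandem MSRB genes did not move together. MSRB3 was higher and MSRB4 lower in TEKi, as above, and MSRB5 had 3110 and 3488 in TEKi against 15672 and 27784 in wild type (log2 difference -2.66, adjusted p = 0.0794). MSRB6 had 1881 and 6683 in TEKi and 2108 and 3056 in wild type, so that its groups overlapped. SAPX, the stromal ascorbate peroxidase gene, had 43338 and 37651 in TEKi and 33194 and 28369 in wild type, and APR1, a reductase gene of sulphate assimilation, sat at 58938 on 3 of 4 arrays.

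The second list is ubiquitin and ubiquitin ligases (6 genes, 1 fell, median -0.013). Besides UBQ11, the polyubiquitin gene UBQ10 had 205 and 201 in TEKi and 987 and 1454 in wild type (log2 difference -2.56, adjusted p = 0.0501) and did not pass. UBQ10 was below the median intensity of all genes on every array, and how well its probes read its transcript was not tested. ORTHL, a relative of the VIM genes that bind hemimethylated DNA, had 8124 and 5246 in TEKi and 6937 and 6357 in wild type. Its groups overlapped, as did those of RMA1, an E3 ligase gene.

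Kinase genes lie in tandem in the interval. None of the 6 cysteine-rich receptor-like kinase genes passed (median 0.48), and the largest log2 difference among them was that of CRK40, with 4741 and 2198 in TEKi and 16018 and 32266 in wild type (log2 difference -2.82, adjusted p = 0.174). None of the 5 calcium-dependent protein kinase genes passed (median 0.48). CPK23, which acts on guard cell anion channels, had 1675 and 928 in TEKi and 30238 and 17532 in wild type (log2 difference -4.21, SE 0.441, adjusted p = 0.0578). Its tandem relative CPK21 had 43540 and 38709 in TEKi against 26194 and 33226 in wild type, and CPK31 had 5353 and 4763 against 1060 and 2027 (log2 difference 1.78, adjusted p = 0.189). Both arrays of TEKi were thus below wild type for CPK23 and above it for CPK21 and CPK31. Of the MAP kinase kinase kinase genes (3 genes, median -0.16), MEKK1, a gene of immune signalling, had 30283 and 23126 in TEKi and 29499 and 29772 in wild type.

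The remaining 6 lists had no gene past the threshold under either labelling. All 6 genes of nucleoside transport and purine breakdown were higher on both TEKi arrays of the value table, as were 27.7% of all genes (median 0.80, against 0.090 over all genes). With the array-file labels none of the 6 had groups apart, and the list's median was -0.25. ENT4, an equilibrative nucleoside transporter gene, had 723 and 436 in TEKi and 235 and 276 in wild type, and ALN, the allantoinase gene, had 18054 and 19319 against 13959 and 16873. Plastid and photosynthesis genes (7 genes, median 0.094) were bright: ATPC1, a subunit of the chloroplast ATP synthase, had 50429 and 61181 in TEKi and 63094 and 64047 in wild type. Transcription and RNA processing genes (7 genes, median 0.25) included KNAT1, a meristem homeobox gene, with 42716 and 53887 in TEKi and 45094 and 39440 in wild type. The groups overlapped for KNAT1. The median was 0.078 for cell wall genes (7 genes), where the callose synthase gene GSL05 had 51101 and 54401 in TEKi and 42249 and 55511 in wild type. It was -0.25 for the 7 listed ankyrin repeat genes, AT4G03440 to AT4G03500. For hormone and ion transport genes (3 genes) it was also -0.25. Among these TPC1, the vacuolar 2-pore cation channel gene, had 40340 and 52728 in TEKi and 53215 and 64047 in wild type. Under the array-file labels the medians were 0.53 for cell wall genes, 0.080 for plastid genes, 0.071 for transcription and RNA processing genes, -0.12 for ankyrin repeat genes and -0.23 for hormone and ion transport genes. They were -0.094 for the receptor-like kinase genes, -0.029 for the calcium-dependent protein kinase genes, -0.32 for the MAP kinase kinase kinase genes, 0.042 for redox enzymes and 0.040 for ubiquitin genes. The medians of 5 lists thus had opposite signs under the 2 sets of labels. The tandem copies in these lists are similar in sequence, and how far probes tell them apart was not tested.

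**Figure D3:**
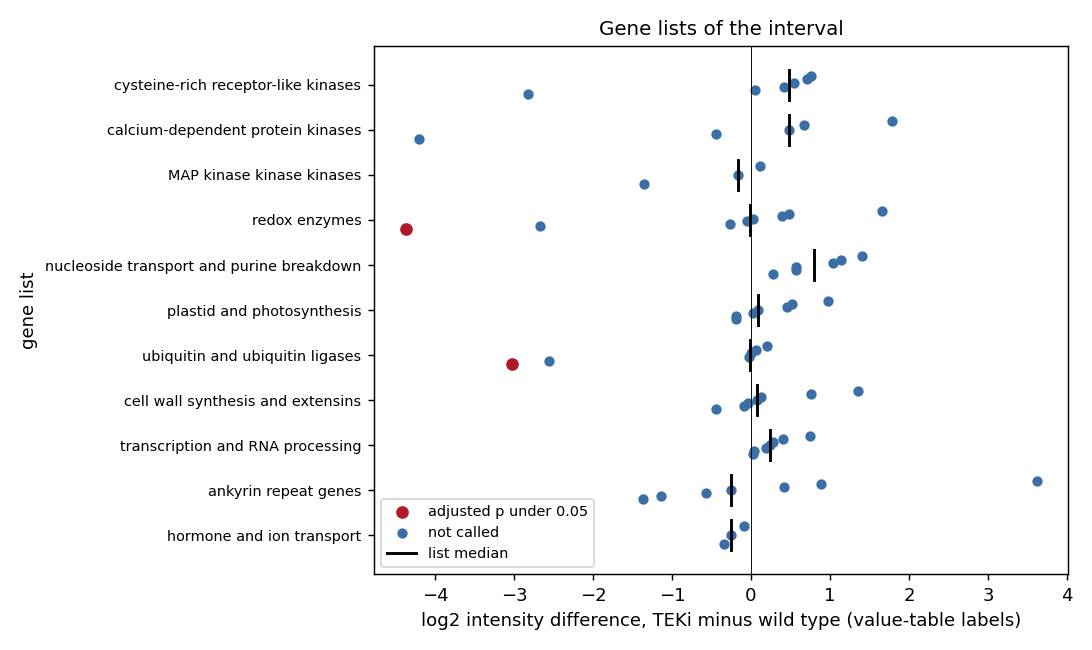
Log2 intensity difference, TEKi minus wild type with the value-table labels (horizontal axis), of the genes in each of the 11 lists (vertical axis), 1 point per gene, with list medians as black bars. The 2 red points are MSRB4 at -4.37 and UBQ11 at -3.02, and list medians lie between -0.25 and 0.80.

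The genes that fell with the value-table labels were then set against RefSeq class and flanking rows. Both are related to the choice of genes, which left out rows described as pseudogenes, transposons or retroelements. The split by class was made after the values were seen. Of the loci that RefSeq lists as pseudogenes, 11 of 89 fell (12.4%), and of protein-coding loci 9 of 242 (3.72%), against 1.95% of all genes. The median log2 difference was -0.46 for pseudogene loci and 0.077 for protein-coding loci. No gene of either class was called with the array-file labels, where the median was -0.069 for pseudogene loci and -0.028 for protein-coding loci. Level moved with this split: the median percentile of mean level over all genes was 21.5 for pseudogene loci and 42.8 for protein-coding loci, and its part in the difference was not tested.

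Position beside transposons varied along with both. Counting the array rows next to a gene on either side, 35 genes had a transposable element row on both sides, and 6 of them fell (17.1%). Of 95 genes tested with 1 such row 6 fell (6.32%), and of 203 with none 8 fell (3.94%). Among pseudogene loci, 5 of 23 with such rows on both sides fell (21.7%), 2 of 35 with 1 (5.71%) and 4 of 31 with none (12.9%). Among protein-coding loci the counts were 1 of 12 (8.33%), 4 of 59 (6.78%) and 4 of 171 (2.34%). The counts are small, and the share did not order by flanking rows among pseudogene loci. The median with the array-file labels was -0.088 for genes with such rows on both sides and 0.0053 for genes with none.

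**Figure D4:**
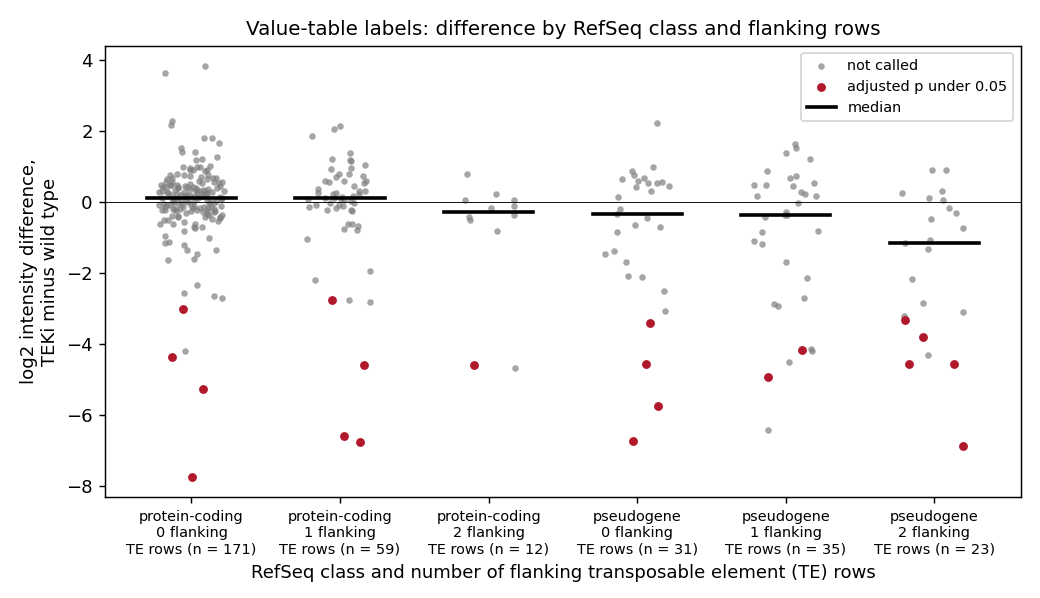
Log2 intensity difference, TEKi minus wild type with the value-table labels (vertical axis), by RefSeq class and number of flanking transposable element rows (horizontal axis), 1 point per gene, with medians as black bars and genes past adjusted p = 0.05 in red. The median is lowest, at -1.16, for the 23 pseudogene loci with such rows on both sides.

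By description, 15 of the 20 genes that fell are unknown, hypothetical or only expressed. These are 15 of 197 tested (7.61%), against 6.01% of the 333 region genes tested and 1.95% of all genes. Cysteine-type peptidases, the deposited description of 9 genes, had a median log2 difference of -2.50 with the value-table labels and -0.062 with the array-file labels, and with the value-table labels 2 fell, AT4G08430 and AT4G04130. The groups were apart and lower in TEKi for 6 of the 9. That held for 17.1% of all genes, 30.6% of region genes and 44.9% of the interval's RefSeq pseudogene loci. The groups were apart and higher for 1, AT4G03970, with 431 and 620 in TEKi and 383 and 245 in wild type. AT4G04010 (116 and 520 in TEKi, 5498 and 3648 in wild type, adjusted p = 0.171), AT4G04545 (188 and 86.6 against 808 and 1075, adjusted p = 0.119) and AT4G08340 (98.4 and 200 against 973 and 652, adjusted p = 0.147) were lower on both TEKi arrays without passing. RefSeq lists 8 of the 9 as pseudogenes, all but AT4G08430. No gene fell among 18 kinase genes or among 11 genes described as transcription factors or zinc finger proteins. Of 87 genes with other descriptions 2 fell (2.30%), near the 1.95% of all genes, and of 11 ubiquitin genes 1 (9.09%).

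Falls were found in every 0.5 Mb window. From 1.5 Mb upwards, 3 of 55 (5.45%), 3 of 71 (4.23%), 2 of 77 (2.60%) and 1 of 9 (11.1%) genes tested fell. From 3.5 Mb upwards it was 2 of 7 (28.6%), 2 of 36 (5.56%), 3 of 22 (13.6%) and 4 of 56 (7.14%). Over all genes 1.95% fell, which is near the share from 2.5 to 3.0 Mb. The shares of the windows with 9 and 7 genes rest on very few genes. The windows from 3.0 to 4.0 Mb, with 57 and 65 transposable element rows, held the fewest genes. Those from 2.0 to 3.0 Mb, with 30 and 27 such rows, held the most. Just inside the left edge, AT4G03410 had 6250 and 5511 in the arrays labelled TEKi and 6900 and 5379 in those labelled wild type, and just outside it the auxin-related gene DFL2 had 24749 and 22569 against 27353 and 25334. Just outside the right edge the sulphate transporter gene SULTR1;1 had 1147 and 1524 in TEKi and 2025 and 4165 in wild type, and neither it nor DFL2 passed.

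Set beside the rest of the genome under the same description rule, the interval held more falls with the value-table labels. Of 3692 such genes elsewhere on chromosome 4, 18 fell (0.488%) and 19 rose, and of 22370 tested on the other nuclear chromosomes 184 fell (0.823%) and 52 rose. Of the 365 transposable element rows of the same interval 36 fell (9.86%) and none rose, with a median log2 difference of -0.30. None of these sets had a call with the array-file labels, and the medians were -0.041 in the interval, 0.033 for its transposable element rows and 0.0032 for chromosome 4 elsewhere. The median level percentile was 34.5 in the interval, 18.6 for its transposable element rows and 56.8 for chromosome 4 elsewhere. These are counts of genes in 1 comparison of 2 arrays against 2, and the difference between the gene sets was not tested.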

How the data were processed

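The deposited values are linear intensities of 30361 gene models on 4 single-colour Cy3 arrays, held both in the array files and in a value table for the whole series. Per the submitters' processing notes they were made with RMA, a method that removes background, puts arrays on a common scale and combines the probes of a gene; no settings are recorded there. No detection flags were used, so whether dim values lie above background is not known. The authors' number of probe pairs per model is another deposited column. Symbols and locus classes came from a RefSeq table of TAIR10.1, used for names and for the split by RefSeq class.

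Intensities were converted to log2 without 9 genes that have an exact 0, leaving 30352 genes with no pseudocount and no filter. The test of TEKi against wild type used limma 3.58.1 in R 4.3.3 (lmFit and eBayes, 2-sided), adjusted by Benjamini-Hochberg over all genes with a threshold of 0.05; SE is the moderated standard error. For arrays, their number limits the precision. Members, lists and both labellings were chosen with earlier results of these data known. Named are the 10 largest falls and rises past the threshold under each labelling, or the 5 smallest p values in a direction where none passed, and members of the lists; the other 10 genes that fell and the cysteine-type peptidases were named after their values were seen, as was the split by RefSeq class. That description class stands in for Ulp1 proteases. Replicate numbers come from the labels, which call the cultures separate, so no pairing was assumed.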

Additional observations from a re-analysis of the deposited data

How the results depend on the processing

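With the array-file labels, 0 region genes and 0 genes in all were called under every alternative run. With the value-table labels, the 674 genes called in all and the 20 in the interval became 1150 and 36 with a mean-variance trend, 191 and 5 where genes under the median level were left out, and 0 and 0 with plain per-gene variance, with a replicate block, at adjusted p = 0.01 and without any 1 array. Smallest adjusted p was 0.0954 to 0.245 without single arrays and 0.0753 with the block. Without the lowest quartile of level they were 906 and 32, where a smaller set of genes was tested. Of the region genes called, 32 were lower in TEKi with the trend, 29 without the lowest quartile and 4 without genes under the median level. Lower in TEKi were also 20 of 21 after a second quantile normalization, 25 of 26 with median centring and 26 of 27 with a pseudocount of 50. The others were higher. Region calls moved to 13 for starts from 2.0 to 5.0 Mb, and to 9 and 11 for protein-coding and pseudogene loci alone, the last 2 chosen after seeing the data; these 3 count fewer region genes by construction, and for the other settings the cause was not tested. The region median of 0.027 became -0.050 without the lowest quartile, ran from -0.030 to 0.020 without single arrays, and was -0.46 for pseudogene loci alone. The log2 differences of 42 region genes were followed with the value-table labels and of 10 with the array-file labels. All kept their sign without each array. The replicate block cannot change them, because each group holds both replicate numbers. The genes were largely picked from the same values, so the kept signs are no separate evidence. Deviations of same-numbered arrays correlated at 0.65 with the array-file labels and 0.11 with the value-table labels. With the array-file labels, Pearson's r over all genes was 0.972 and 0.974 for same-numbered arrays. It was 0.929 to 0.934 for the other pairs of arrays. What the replicate numbers stand for was not tested.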

Other observations

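Several region genes came close to the threshold with the value-table labels beside genes that fell; they were picked after their values were seen and did not pass. AT4G07523, which ends 508 bases before AT4G07520, had 229 and 72.9 in TEKi and 9394 and 13098 in wild type (limma, adjusted p = 0.0517). AT4G08600, which ends 260 bases before AT4G08602, had 363 and 799 in TEKi and 9893 and 9264 in wild type (adjusted p = 0.0578). AT4G04820, between MSRB4 and MSRB5, had 473 and 503 in TEKi against 2992 and 5723 in wild type (adjusted p = 0.0719). The loci AT4G06716, AT4G06724 and AT4G06728, which precede AT4G06735, had 15361 to 21411, 6291 to 10593 and 9195 to 13148 in TEKi, and 54363 to 64047, 56706 to 60902 and 45109 to 53540 in wild type (adjusted p = 0.0975, 0.0615 and 0.0685). All 6 were lower on both TEKi arrays than on either wild-type array.

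Among protein-coding genes, FBS3, an F-box gene, had 1139 and 978 in TEKi and 3097 and 3373 in wild type (adjusted p = 0.0587), and RAP2.9, an ERF transcription factor gene, had 980 and 825 against 2550 and 2432 (adjusted p = 0.0689). On the other side, AT4G04990 had the largest positive log2 difference of the interval, 3.80, with 1613 and 1877 in TEKi and 202 and 76.6 in wild type (adjusted p = 0.0953).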
